A study of Mus musculus with 11 samples.

Results

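The day 3-only distal PU.1 regions are places bound by the Ets-family transcription factor PU.1 in B cells differentiating into plasma cells and missing from the corresponding day 1 list. They were chosen by the PU.1 peak lists themselves. A region is a peak of the PU.1 day 3 list with no peak position of the PU.1 day 1 list less than 200 bp away, lying more than 1 kb from every annotated start site of a protein-coding gene. The rule found 5367 of the 21382 peaks of the day 3 list, and all coordinates are on mouse build mm9. These regions are called the members below, and a pair of other classes serve for comparison. The 11422 stable distal regions are distal peaks of the day 3 list with a day 1 partner, and the 7030 day 1-only distal regions are distal peaks of the day 1 list with no day 3 partner.

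The cells were resting mature B cells enriched from spleens of B1-8i mice on the 129 background, whose targeted antigen receptor gene recognises the hapten NP. All groups received the same stimulus, NP-Ficoll at 0.01 ng/mL with CD40L, IL-2, IL-4 and IL-5. Cells taken after 3 days (differentiated) and after 1 day (activated) each gave 2 PU.1 libraries and 3 IRF4 libraries by chromatin immunoprecipitation and sequencing (ChIP-seq), and the authors computed enrichment over 1 input library, which enters no comparison here. No label says whether the libraries of a day stem from separate mice or cultures; the p-values below thus reflect the spread of the libraries alone, which could be technical. Peak lists hold no expression, so the cell type was not checked against marker RNA, and a day 3 culture can hold cells that have not differentiated.

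PU.1 binds DNA at a purine-rich core with GGAA and acts in myeloid cells and B cells, where it is needed early in the lineage and becomes scarce in plasma cells. IRF4 is a transcription factor that rises as B cells become plasma cells. It binds DNA weakly alone and is recruited by PU.1 or its relative Spi-B to Ets-IRF composite elements (EICE), or by BATF and Jun proteins to AP-1-IRF composite elements (AICE), while the interferon-stimulated response element (ISRE) takes IRF proteins without either partner.

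The reference sequence of the strongest members with no peak position of either single day 1 library within 200 bp shows what these places look like. Each line gives 120 bases of the mm9 plus strand, centred on the peak position. Capitals mark the PU.1 site GAGGAAGT, the EICE GGAANNGAAA, the ISRE GAAANNGAAA, the AP-1 site TGANTCA, the AICE, and the 4 octamers CAGGAAGT, AAGGAAGT, GGGGAAGT and AGGGAAGT, the next most common GGAA octamers in the members. All were searched on both strands, so that ACTTCCTC is the PU.1 site read from the other strand. The first 3 lines hold an EICE and the next 2 a PU.1 site. Then come 3 with another common Ets octamer, 1 with an ISRE, and 2 with no marked element.
Rtn4rl1 intron, chr11:75019921-75020040: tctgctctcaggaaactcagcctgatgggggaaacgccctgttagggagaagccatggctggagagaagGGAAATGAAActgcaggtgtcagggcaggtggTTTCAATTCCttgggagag
Mcoln3 intron, chr3:145798009-145798128: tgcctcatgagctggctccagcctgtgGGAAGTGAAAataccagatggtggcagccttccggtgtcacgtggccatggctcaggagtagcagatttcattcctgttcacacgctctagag
Abca5 exon, chr11:110159319-110159438: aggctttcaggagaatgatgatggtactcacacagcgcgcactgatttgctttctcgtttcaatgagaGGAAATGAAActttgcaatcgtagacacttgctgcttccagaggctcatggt
Rab24 end, chr13:55420103-55420222: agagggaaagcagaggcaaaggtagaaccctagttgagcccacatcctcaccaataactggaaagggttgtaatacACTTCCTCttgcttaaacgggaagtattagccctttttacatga
Exoc6 upstream, chr19:37597901-37598020: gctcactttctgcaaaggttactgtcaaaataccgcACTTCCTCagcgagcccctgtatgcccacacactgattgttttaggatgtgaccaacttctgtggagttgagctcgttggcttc
Hivep3 intron, chr4:119726877-119726996: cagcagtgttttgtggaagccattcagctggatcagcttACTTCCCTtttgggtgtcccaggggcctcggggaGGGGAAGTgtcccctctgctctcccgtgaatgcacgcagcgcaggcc
Kcnrg intergenic, chr14:62302676-62302795: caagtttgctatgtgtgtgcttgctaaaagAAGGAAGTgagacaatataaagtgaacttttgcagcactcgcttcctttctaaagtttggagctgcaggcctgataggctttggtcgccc
Plekho2 intergenic, chr9:65389584-65389703: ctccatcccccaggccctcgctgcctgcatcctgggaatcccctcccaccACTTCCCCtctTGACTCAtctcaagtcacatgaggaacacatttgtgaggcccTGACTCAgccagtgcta
BC017647 intron, chr11:77960811-77960930: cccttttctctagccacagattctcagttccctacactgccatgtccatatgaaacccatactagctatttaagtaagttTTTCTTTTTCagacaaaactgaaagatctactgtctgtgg
Plau upstream, chr14:21649361-21649480: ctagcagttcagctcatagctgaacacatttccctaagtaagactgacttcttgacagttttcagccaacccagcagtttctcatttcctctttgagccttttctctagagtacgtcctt
Nid1 intergenic, chr13:13615929-13616048: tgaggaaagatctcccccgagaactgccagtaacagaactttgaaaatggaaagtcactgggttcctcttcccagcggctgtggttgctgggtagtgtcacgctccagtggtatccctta

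A second set holds members of the same kind that also had a peak of the IRF4 day 3 list less than 200 bp away, and the Mcoln3 intron above belongs to it too. Each line gives 200 bases of the plus strand with the same marking. Prpf18 and Vmp1 are shown first because they hold an AICE, GAAATGANTCA or TTTCNNNNTGANTCA, whose AP-1 letters are also an AP-1 site.
Prpf18 exon, chr2:4569247-4569446: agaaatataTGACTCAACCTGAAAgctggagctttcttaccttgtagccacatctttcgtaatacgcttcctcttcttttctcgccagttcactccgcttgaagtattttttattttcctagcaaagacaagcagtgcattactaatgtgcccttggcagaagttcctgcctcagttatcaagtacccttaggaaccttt
Vmp1 intron, chr11:86437919-86438118: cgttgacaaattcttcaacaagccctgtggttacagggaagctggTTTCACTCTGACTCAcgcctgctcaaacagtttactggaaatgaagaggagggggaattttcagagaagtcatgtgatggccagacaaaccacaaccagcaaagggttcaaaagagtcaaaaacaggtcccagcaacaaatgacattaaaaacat
Rasal2 intron, chr1:159071265-159071464: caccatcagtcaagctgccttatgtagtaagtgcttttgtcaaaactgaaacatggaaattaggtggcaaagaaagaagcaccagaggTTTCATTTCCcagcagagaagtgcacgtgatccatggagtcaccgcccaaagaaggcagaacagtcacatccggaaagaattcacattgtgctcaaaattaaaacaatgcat
Gm1818 intergenic, chr12:49612633-49612832: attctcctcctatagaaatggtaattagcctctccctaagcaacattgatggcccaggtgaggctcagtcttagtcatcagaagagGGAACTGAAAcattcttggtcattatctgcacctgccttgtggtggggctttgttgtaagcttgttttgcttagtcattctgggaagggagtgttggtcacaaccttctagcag
Phxr4 intergenic, chr9:13269714-13269913: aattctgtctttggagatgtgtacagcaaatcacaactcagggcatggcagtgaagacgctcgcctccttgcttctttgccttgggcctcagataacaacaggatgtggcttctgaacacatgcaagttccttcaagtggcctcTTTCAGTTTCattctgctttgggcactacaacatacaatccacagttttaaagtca
Snd1 intergenic, chr6:28940320-28940519: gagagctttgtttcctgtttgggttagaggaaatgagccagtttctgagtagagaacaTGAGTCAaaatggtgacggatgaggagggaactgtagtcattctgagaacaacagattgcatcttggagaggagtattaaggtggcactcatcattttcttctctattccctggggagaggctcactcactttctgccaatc
Foxn3 intergenic, chr12:100846609-100846808: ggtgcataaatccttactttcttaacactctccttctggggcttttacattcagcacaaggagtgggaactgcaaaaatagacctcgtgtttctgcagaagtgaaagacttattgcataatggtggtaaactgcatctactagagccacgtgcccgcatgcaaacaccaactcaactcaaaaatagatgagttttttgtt

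Most members had a PU.1 peak in a day 1 library after all. A single day 1 library had a position less than 200 bp away at 3717 members (69.3%, 95% Wilson interval 68.0 to 70.5), replicate 1 alone at 1306 (24.3%) and replicate 2 alone at 2411 (44.9%). Over the whole PU.1 day 3 list that share was 23.6%; the rule used this contrast, so nothing is read from it. Neither day 1 library had such a position at 1645 members (30.7%, interval 29.4 to 31.9), and both had one at 5. Of the 1645, the position of 75 still fell inside a peak interval of a day 1 library, which leaves 1570 outside every day 1 call. Intervals cover counting error over regions only, and regions are not replicates of a condition.

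Stronger members were the ones most often seen on day 1. Members were ranked by the weaker of their ranks in the 2 day 3 libraries and split by rank into 10 groups of equal size. In the strongest group, 485 of 536 members were called in exactly 1 day 1 library and 51 (9.51%) in neither. In the weakest group, 252 of 537 (46.9%) were called in neither, and the share was higher in each weaker group. Of the 25 highest-ranking members, 23 were called in 1 day 1 library and 2 in neither.

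**Figure D1:**
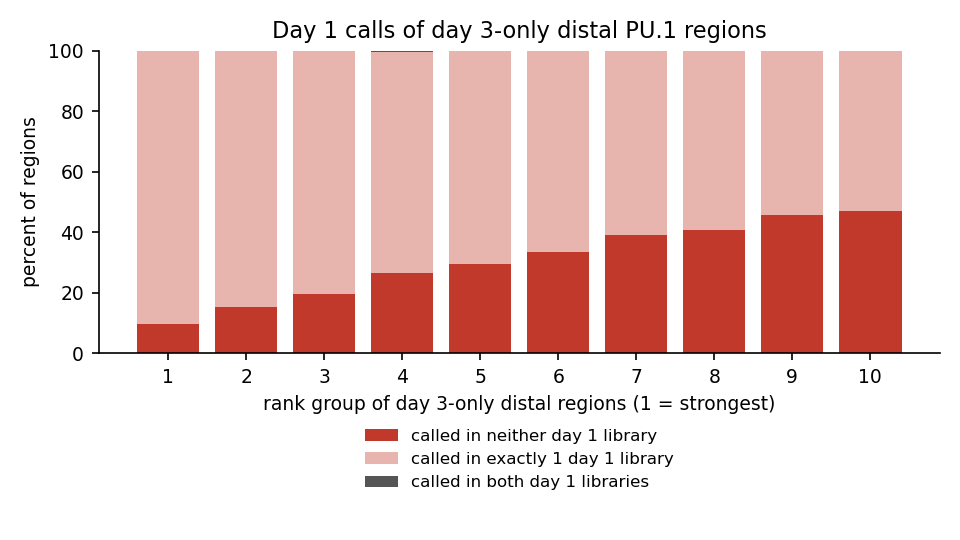
Percent of day 3-only distal PU.1 regions called in neither, exactly 1 or both day 1 PU.1 libraries (y axis), in 10 groups of equal size by day 3 rank (x axis, 1 is the strongest). The share called in neither is 9.51% in the strongest group and 46.9% in the weakest.

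Enrichment is the authors' fold over input at the peak and is used here within a list. Its median in the day 3 list was 28.7 in the members, against 69.9 in stable distal regions, and the day 1-only regions had a median of 26.8 in their own list. Within the members it was 24.2 where neither day 1 library had a call and 31.6 where exactly 1 did. Where a single day 1 library had a call, the median enrichment there was 24.4 in replicate 1 (range 15.003 to 502) and 26.0 in replicate 2 (15.1 to 581). Enrichments of 100 or more occurred at 34 of the replicate 1 calls and 55 of the replicate 2 calls, so a share of the members was strongly called in 1 day 1 library.

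The order of members by enrichment was partly shared by the day 3 libraries, with a Spearman rho of 0.56 over the 5367 members, and of 0.85 over the stable distal regions. This is a description over regions, and the members span a narrower range, with quartiles of 21.3 and 41.4, against 40.5 and 137 in stable regions. All members have a day 3 replicate 2 position no more than 200 bp away, since both PU.1 group lists hold lines of replicate 1 that have such a partner.

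**Figure D2:**
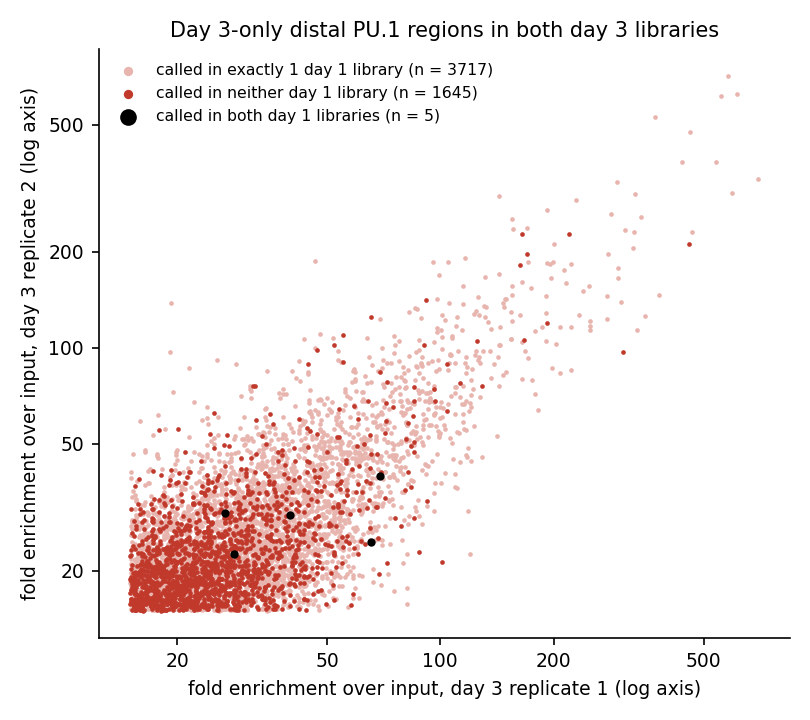
Fold enrichment over input of each day 3-only distal PU.1 region in day 3 replicate 1 (x axis) and in its day 3 replicate 2 partner (y axis), both on log axes, coloured by day 1 calls (1645 in neither library, 3717 in exactly 1, 5 in both). Regions called in neither crowd at low enrichment, with a median of 24.2 in replicate 1.

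The libraries differ in ways that touch these classes. Day 3 gave PU.1 lists of 34410 and 34061 peaks, and day 1 lists of 27321 and 38052. Peaks are numbered by falling enrichment and each list skips numbers, among the first 1000 of them 38 and 8 in the day 3 lists, against 9 and 7 in the day 1 lists; the skipped peaks are not analysed here, and whether any lay at a member was not tested. Of the first 1000 listed peaks of day 3 replicate 2, only 85.8% were found in day 3 replicate 1, and of those of the day 1 libraries 83.4% and 86.4%, whereas every other pair of PU.1 libraries shared 98.4% to 99.6%. Day 3 replicate 1 supplies the day 3 list, and 4678 of the 7030 day 1-only regions (66.5%) were called in day 3 replicate 2 alone. Another 1103 (15.7%) were called in day 3 replicate 1 alone and 8 in both. Only 1241 (17.7%) were called in neither, so most of that class was seen in a day 3 library.

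At the strongest members called in neither day 1 library, both day 3 libraries gave high enrichment, which the choice by rank requires. In an intron of Hivep3, which encodes a zinc finger protein (chr4:119726774-119727443), it was 457 in replicate 1 and 211 in replicate 2. This position lay inside a peak interval of day 1 replicate 2, and a peak of the day 1 list stood 552 bp away, so PU.1 was called close by on day 1. Another 3 of the 12 are of this kind: the places beyond the end of Rab24, upstream of Exoc6 and upstream of Plau lay inside intervals of both day 1 libraries, with a day 1 list peak 237, 465 and 234 bp away.

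The others described here lay outside every day 1 interval. An intergenic place whose nearest gene, Kcnrg, is 71983 bp away (chr14:62302510-62302928) had 220 and 228 in the day 3 libraries, with a day 1 list peak 1104 bp away. An intron of BC017647 (chr11:77960617-77961000) had 170 and 197. An intron of Rtn4rl1, a Nogo receptor relative (chr11:75019836-75020218), had 192 and 120, with a pair of EICE on opposite strands. These 3 places were chosen for their high rank in both day 3 libraries, and the member median in replicate 1 was 28.7.

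The intergenic place 12549 bp from Plekho2 (chr9:65389384-65390191) was uneven between the day 3 libraries, with 305 in replicate 1 and 96.7 in replicate 2, and held a pair of AP-1 sites. An intron of Mcoln3, a cation channel of endosomes and lysosomes (chr3:145797837-145798279), had 104 and 88.6. An exon of the lipid transporter gene Abca5 (chr11:110159234-110159513) had 113 and 77.3, and an intergenic place 11447 bp from Nid1, a basement membrane protein gene (chr13:13615824-13616709), had 129 and 75.9. Of these 7, an EICE was found in 3, an ISRE in 1 and AP-1 sites in 1.

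The highest-ranking members of all were called in 1 day 1 library, replicate 2 each time. An intron of Tcf4, the gene of an E protein that B cells use (chr18:69821701-69822301), had 614 and 624 in the day 3 libraries and 529 in day 1 replicate 2. An intron of Ctnnd2, a delta-catenin gene (chr15:30540325-30540730), had 579 and 710 on day 3 and 581 in day 1 replicate 2. Its nearest peak of the day 1 list was 614277 bp away, so no neighbouring peak stands in for the missing call. The place 1756 bp from Gltp, the glycolipid transfer protein gene (chr5:115117431-115117833), had 557 and 616 on day 3 and 371 in day 1 replicate 2.

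An exon of Cmya5, a gene known from muscle (chr13:93863896-93864489), had 540 and 383 on day 3 and 253 in day 1 replicate 2. An intron of Rfc1, the large subunit of the DNA clamp loader (chr5:65717454-65717802), had 699 and 337 on day 3 and 183 in day 1 replicate 2. At all 5 the missing call is that of day 1 replicate 1, although the Tcf4 position fell inside a replicate 1 peak interval. Replicate 1 peaks of the day 1 list stood 442 bp from the Rfc1 position, 921 bp from Tcf4 and 1134 bp from Cmya5. From the Gltp place the nearest was 6461 bp away. Lack of a day 1 list partner is therefore, at these places, the lack of a peak position less than 200 bp away in 1 library.

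At the edge of the partner distance, the 20 members less than 50 bp inside the rule had a median enrichment of 40.7, and the 33 distal peaks no more than 50 bp outside it 30.7. At the edge of the distance to start sites, the 62 members no more than 100 bp inside had a median of 30.4 and the 59 peaks less than 100 bp outside 30.9. The median distance of the members to the nearest peak of the day 1 list was 11636 bp, and 483 members lay more than 100 kb from one.

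In gene anatomy the members were close to the stable regions. Introns held 51.1%, intergenic DNA 43.8% and exons 5.14% of the members, against 50.8%, 45.1% and 4.09% of the stable distal regions. The exon share was higher in the members by 1.05 percentage points (95% Newcombe interval 0.38 to 1.77). Against the day 1-only regions, with 45.8% in introns, 52.3% in intergenic DNA and 1.91% in exons, the members had 5.22 points more in introns (3.45 to 6.99) and 3.24 more in exons (2.58 to 3.93). The median distance to a start site was 16.3 kb, against 16.5 kb in stable and 18.015 kb in day 1-only regions, and the median width was 280 bp, against 345 and 290 bp. Median GC content of the 200 bp window was 47.0%, against 47.5% and 46.5%. By chromosome, members made up from 28.5% (chr10) to 35.7% (chr12) of the members and stable regions together, leaving out chrY, where the only such region was a member.

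The members held the PU.1 site less often than the stable regions. It was present in the 200 bp around the peak position in 21.9% of members (interval 20.8 to 23.1), against 28.0% of stable regions, a difference of -6.09 percentage points (95% Newcombe interval -7.46 to -4.70). The same share was 27.7% in day 1-only regions (difference -5.78, interval -7.30 to -4.25) and 1.46% in windows 2 kb to either side of the members. Without PU.1 day 3 replicate 1 the difference from day 1-only regions was -2.50 (interval -4.45 to -0.61). In the members it was lower where neither day 1 library had a call, 18.7%, against 23.4% where exactly 1 did (difference -4.66, interval -6.94 to -2.29). The reversed letters TGAAGGAG, searched as a control, were found in 1.36% of members, against 1.38% of stable and 1.32% of day 1-only regions.

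The GGAA core alone did not separate the classes. It was present in 99.0% of members, of stable and of day 1-only regions and in 87.5% of flanking windows. Any of the 5 most common GGAA octamers, the PU.1 site and the 4 others marked above, was present in 52.7% of members, against 58.7% of stable and 58.5% of day 1-only regions. Of the others, CAGGAAGT was held by 11.9% of members and 11.4% of stable regions and AAGGAAGT by 9.24% of members and 8.97% of stable regions, and GGGGAAGT by 7.32% of members and 9.53% of stable regions.

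**Figure D3:**
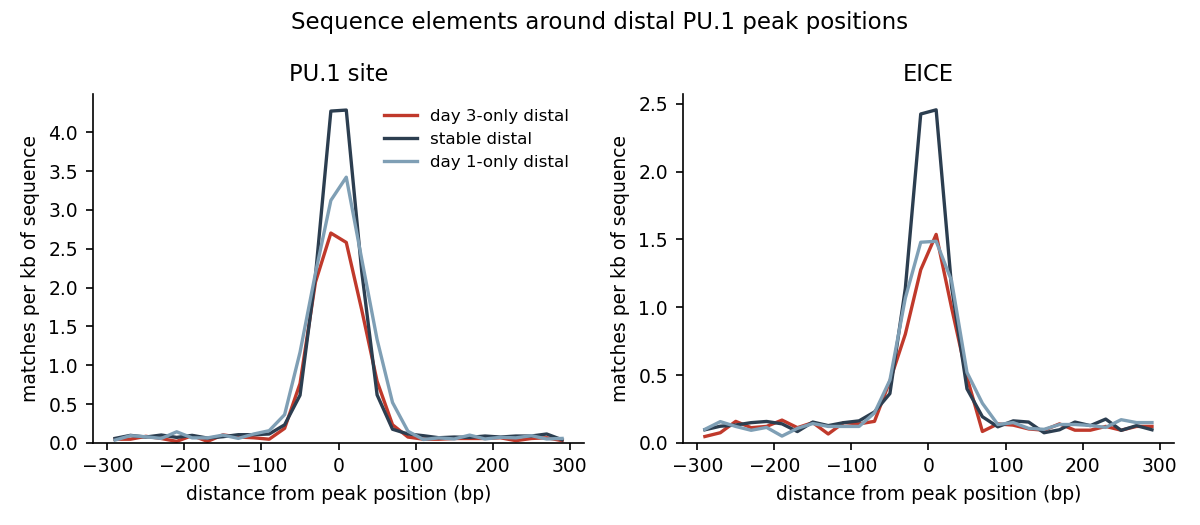
Matches per kb of sequence (y axis) for the PU.1 site (left) and the EICE (right) by distance from the peak position in 20 bp bins (x axis), in day 3-only, stable and day 1-only distal regions. All classes peak at the position itself; in the bin just before it the PU.1 site has 2.70 matches per kb in day 3-only regions, 4.27 in stable and 3.12 in day 1-only regions.

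Part of these gaps moves with peak strength. The members and stable regions were split into 4 strength groups of about equal size by their common day 3 enrichment, with lower bounds of 15.004, 29.2, 49.65 and 101; members numbered 2737, 1709, 736 and 185, against 1408, 2520, 3480 and 4014 stable regions. The PU.1 site difference was -2.73, -2.67, -5.01 and -5.17 points from the weakest to the strongest group, with intervals that lie below 0 in the lower 3 and include 0 in the strongest (-11.3 to 1.83). Even within the strongest group, median enrichment was 143 in members and 192.5 in stable regions, so the groups do not match the classes fully.

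The EICE was present in 11.7% of members, against 16.6% of stable regions (difference -4.88, interval -5.96 to -3.76), 13.5% of day 1-only regions (-1.72, interval -2.89 to -0.54) and 2.06% of flanking windows. The difference from stable regions was -2.70 without PU.1 day 1 replicate 1. That from day 1-only regions was 2.87 without PU.1 day 1 replicate 1, 2.91 without PU.1 day 3 replicate 1 and -5.85 without PU.1 day 3 replicate 2. Within the strength groups the difference from stable regions was -0.46, 1.12, 0.71 and -3.02 points, and all 4 intervals include 0. The difference from day 1-only regions turned to 1.68 points (interval -0.59 to 3.89) when members called in neither day 1 library, at 11.2%, were set against day 1-only regions called in neither day 3 library, at 9.51%. In that setting, added after seeing the data, the PU.1 site was still less frequent in the members, 18.7% against 26.7% (difference -7.95, interval -11.1 to -4.86).

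The GC box GGGCGG, a site of Sp-family factors, went the other way. It was present in 5.70% of members, against 5.05% of stable regions (difference 0.65, interval -0.07 to 1.41) and 3.19% of day 1-only regions (2.52, interval 1.78 to 3.27). Within the 4 strength groups the members held it more often than stable regions by 2.37, 1.57, 0.98 and 4.07 points from the weakest to the strongest, with intervals above 0 in all but the third. Without PU.1 day 3 replicate 1 the difference from day 1-only regions was 0.51 (interval -0.42 to 1.32), and without PU.1 day 1 replicate 1 it was 1.40. The octamer ATGCAAAT, bound by Oct factors, was in 2.59% of members, 2.29% of stable (difference 0.30, interval -0.19 to 0.82) and 1.61% of day 1-only regions (0.98, interval 0.48 to 1.52). The difference from day 1-only regions was 0.35 (interval -0.15 to 0.91) without PU.1 day 1 replicate 2, 0.53 without PU.1 day 3 replicate 2 and 2.14 without PU.1 day 1 replicate 1. In members called in neither day 1 library it reached 3.34%, against 2.26% in those called in exactly 1 (difference 1.08, interval 0.15 to 2.16).

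The ISRE was in 5.89% of members, against 6.05% of stable and 5.26% of day 1-only regions. The AP-1 site was in 8.31%, against 8.85% and 8.92%, and an AICE in 19 members (0.354%), against 0.341% in both other classes. All 6 intervals of these differences include 0. Some alternatives gave intervals that do not. Between members called in neither day 1 library and day 1-only regions called in neither day 3 library, the ISRE share was 5.96% against 3.95% (difference 2.01, interval 0.39 to 3.58). The ISRE difference from day 1-only regions was 2.31 (interval 1.42 to 3.31) without PU.1 day 1 replicate 1 and 1.57 (interval 0.57 to 2.46) without PU.1 day 3 replicate 1. Without PU.1 day 3 replicate 1 the AP-1 difference was -3.28 from day 1-only (interval -4.68 to -2.00) and -1.30 from stable regions (interval -1.94 to -0.66).

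The Runx site TGTGGT was in 18.1% of members, against 19.5% of stable (difference -1.41, interval -2.65 to -0.13) and 20.1% of day 1-only regions (-1.98, interval -3.37 to -0.59). The difference from stable regions had an interval that includes 0 in windows of 100 bp (-0.68) and 400 bp (-1.05) and without PU.1 day 1 replicate 2 (-1.17), as did that from day 1-only regions in windows of 100 bp (-0.57). Without PU.1 day 1 replicate 1 the difference from stable regions was -2.32, and without PU.1 day 3 replicate 1 the differences were -2.26 from stable and -3.20 from day 1-only regions. The E-box CAGCTG was in 13.5% of members, against 14.5% (-1.03, interval -2.13 to 0.11) and 11.2% (2.23, interval 1.07 to 3.42). Other windows and leaving out single PU.1 libraries were not run for the E-box. Letters found in a window are a description and do not show binding.

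**Figure D4:**
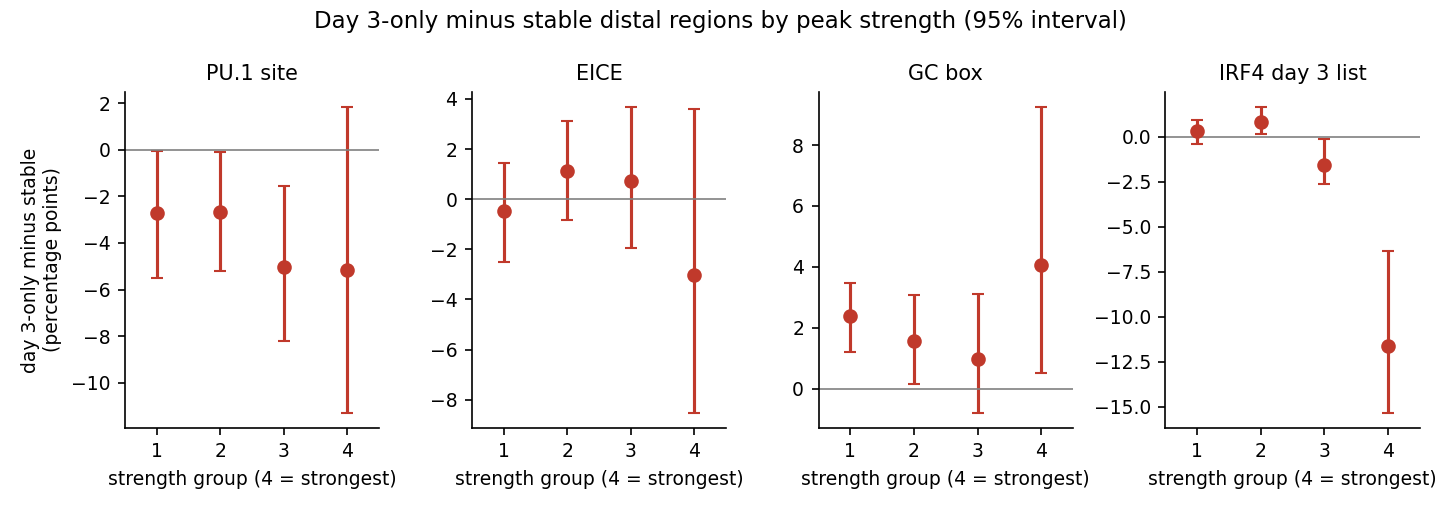
Difference in percentage points between day 3-only and stable distal PU.1 regions (y axis) in 4 groups of day 3 enrichment (x axis, 4 is the strongest) for 3 sequence elements and for a peak of the IRF4 day 3 list; bars are 95% Newcombe intervals. The EICE intervals all include 0, and the IRF4 difference is -11.6 in the strongest group.

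IRF4 was rare at the members on both days. A peak of the IRF4 day 3 list stood less than 200 bp from 97 members (1.81%) and one of the IRF4 day 1 list from 92 (1.71%). Over the whole PU.1 day 3 list these shares were 5.88% and 5.83%. The IRF4 day 3 list reached 8.90% of stable and 3.03% of day 1-only regions, and the IRF4 day 1 list 8.84% and 3.71%. In members called in neither day 1 PU.1 library the shares were 2.07% for IRF4 day 3 and 1.70% for IRF4 day 1.

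The gap to stable regions lay at strong peaks. In the weakest group of PU.1 strength 1.24% of members and 0.923% of stable regions had an IRF4 day 3 peak (difference 0.32 points, interval -0.42 to 0.94), and in the next group 1.76% and 0.913% (0.84, interval 0.15 to 1.64). In the third group it was 2.04% of members and 3.59% of stable regions (-1.55, interval -2.60 to -0.14). In the strongest group it was 9.73% of members and 21.3% of stable regions (-11.6, interval -15.3 to -6.32). The IRF4 day 1 list gave differences whose intervals include 0 in the lower 3 groups, and in the strongest 7.57% of members and 20.005% of stable regions (-12.4, interval -15.7 to -7.55). Median PU.1 enrichment in the strongest group was 143 in members and 192.5 in stable regions, so these gaps are not taken at equal strength.

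Library by library, an IRF4 peak lay at 2.44%, 1.21% and 5.72% of members in the day 3 libraries and at 0.429%, 4.30% and 3.58% in the day 1 libraries. The days overlap, and within each day the order follows the number of peaks, which was 2784, 1408 and 5595 in the day 3 libraries and 825, 9326 and 8929 in the day 1 libraries. The means of 3.12 ± 2.33 percent on day 3 and 2.77 ± 2.06 percent on day 1 (SD, n = 3 each) differed by 0.354 points, within the spread between libraries (exact permutation test, two-sided, p = 0.9; the smallest p for 3 against 3 is 0.1). Stable regions had 10.6 ± 3.88 percent on day 3 and 10.5 ± 5.57 percent on day 1 (SD, n = 3 each).

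**Figure D5:**
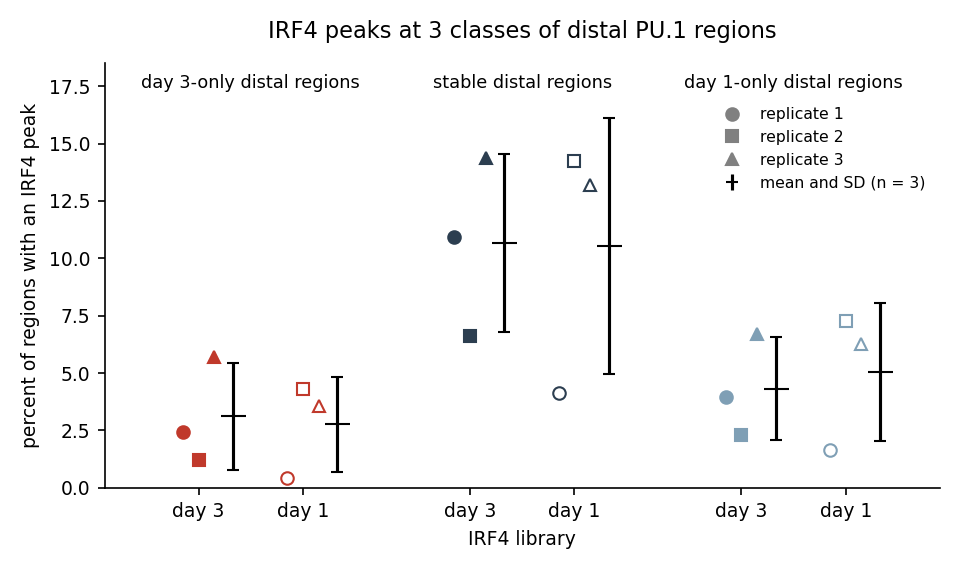
Percent of regions with an IRF4 peak position less than 200 bp away (y axis) in each IRF4 library of day 3 and day 1 (x axis), for day 3-only, stable and day 1-only distal PU.1 regions; horizontal marks and bars are the mean and SD of 3 libraries. Day 3-only regions lie lowest in each library, and the days overlap in each class.

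A ratio within a library was taken because the share follows list length. Within each day, though, both ratios below still rose with the number of peaks. The library with 825 peaks had the lowest value of each, -3.24 over stable and -1.91 over day 1-only regions. The log2 of the share of members over the share of stable regions averaged -1.98 ± 0.58 in the day 3 IRF4 libraries and -2.28 ± 0.83 in the day 1 libraries (SD, n = 3 each), a difference of 0.31 (exact permutation test, two-sided, p = 0.7). Against the day 1-only regions it averaged -0.61 ± 0.35 on day 3 and -1.15 ± 0.65 on day 1 (SD, n = 3 each), a difference of 0.54 (exact permutation test, two-sided, p = 0.4). Neither difference passed the test.

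The log2 ratio differed more by day in the regions without any call on the other day, a comparison added after seeing the data. It sets the 1645 members called in neither day 1 PU.1 library against the 1241 day 1-only regions called in neither day 3 PU.1 library. Median PU.1 enrichment was 24.2 in the former and 19.8 in the latter, each in its own list. The 2 classes were not matched for PU.1 strength, with which the IRF4 share rises. In the day 3 IRF4 libraries 44, 25 and 91 of these members had an IRF4 peak, against 7, 3 and 16 of these day 1-only regions. In the day 1 IRF4 libraries it was 8, 71 and 51 of the members and 6, 33 and 34 of the day 1-only regions. The log2 ratio of the shares was 2.16, 2.46 and 2.07 in the day 3 libraries and -0.02, 0.69 and 0.17 in the day 1 libraries, so the days did not overlap. The difference of 1.95 had the smallest p that 3 against 3 libraries can give (exact permutation test, two-sided, p = 0.1), which does not pass 0.05, and it rests on few regions in the shortest lists.

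Region by region, 4772 members (88.9%) had no peak of any IRF4 library nearby and 404 had one in exactly 1 library. Day 3 IRF4 libraries alone were found at 253 members (4.71%), day 1 libraries alone at 218 (4.06%) and libraries of both days at 124 (2.31%). All 6 IRF4 libraries were found at 9 members. All 3 day 3 and no day 1 library were found at 6 members, and all 3 day 1 and no day 3 library at 2. These patterns were not counted over the other classes, so no trait of the members is read from them.

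Over the 1645 members called in neither day 1 PU.1 library, day 3 IRF4 libraries alone were found at 83 (5.05%) and day 1 libraries alone at 63 (3.83%). Among the 1645, 34 had a peak of the IRF4 day 3 list, and 17 of these had no IRF4 peak in any day 1 library. These counts were not made over the other classes either, so no lean to a day is read from them. The 8 highest-ranking of the 34 include the Mcoln3 intron, where IRF4 enrichment was 18.1, 25.1 and 44.7 in the day 3 libraries and 22.4 and 22.1 in day 1 replicates 1 and 3. Its EICE lies 28 bp before the PU.1 peak position. An exon of Prpf18, a splicing factor gene (chr2:4569185-4569455), had IRF4 in all 3 day 3 libraries, at 36.1, 23.1 and 71.9, and in no day 1 library; PU.1 there had 41.4 and 25.006 on day 3. Its AICE lies 83 bp before the PU.1 position, near the edge of the searched window.

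An intron of Vmp1, a membrane protein of autophagy (chr11:86437754-86438215), had IRF4 in all 6 libraries, at 32.1, 42.4 and 33.9 on day 3 and 21.3, 76.2 and 67.0 on day 1, with PU.1 at 30.9 and 27.7 on day 3; it holds an AICE 47 bp before the PU.1 position. The intergenic place nearest to Snd1 (chr6:28940251-28940516) had IRF4 in 2 libraries of each day, with an AP-1 site. The place nearest to Phxr4 (chr9:13269633-13270006) had IRF4 in 2 day 3 libraries and 1 day 1 library, with an ISRE. A PU.1 peak of the day 1 list stood 495 bp from the Phxr4 place.

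The remaining 3 had IRF4 in 2 day 3 libraries and in no day 1 library. An intron of Rasal2, which encodes a Ras GTPase-activating protein (chr1:159071137-159071503), had 18.1 and 25.2 in day 3 replicates 2 and 3, with an EICE 7 bp before the PU.1 position. The intergenic place nearest to Gm1818 (chr12:49612645-49612818) had 22.3 and 24.4 in day 3 replicates 1 and 3, with an EICE 9 bp before it and the next PU.1 peak of the day 1 list 2836496 bp away. The place 158.4 kb upstream of the forkhead gene Foxn3 (chr12:100846493-100846824) had 20.8 and 33.6 in day 3 replicates 1 and 3 and none of the marked elements. With Prpf18 these make 4 of the 8 places without an IRF4 call on day 1. All 8 were chosen for a peak of the IRF4 day 3 list, so a day 3 call was fixed by the choice.

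Members lay within 20 kb of 4572 of 22238 protein-coding genes (20.6%), and members called in neither day 1 library of 1730 (7.78%). Stable regions lay within 20 kb of 7126 of the 22238. Nearness is a rule of distance, and long genes and genes crowded with PU.1 peaks meet it more easily; no set test was made. Among regulators of plasma cells, 10 of 20 listed genes had a member nearby, 4 of them a member called in neither day 1 library, and 12 had a stable region. They include Prdm1, the gene of the plasma cell regulator Blimp-1, and Irf4 itself, each with 1 member called in a day 1 library. Tnfrsf13b, Ell2 and Zbtb20 each had a member called in neither day 1 library. An intron of Creb3l2, a transcription factor of the secretory pathway (chr6:37376710-37376949), had 47.0 and 98.6 on day 3 and no day 1 call, with an EICE and an octamer. The place 110 bp beyond the end of Cd28, a costimulatory receptor of T cells and plasma cells, had 64.0 and 77.4 on day 3 and 39.5 in day 1 replicate 1. A member in an intron of Rasip1 near Fut1 had 279 and 197 on day 3 and 186 in day 1 replicate 2, and its position lay inside peak intervals of both day 1 libraries.

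Of 20 genes of the unfolded protein response and secretion, 8 had a member nearby, 2 a member called in neither day 1 library, and 8 a stable region. The place 1.8 kb upstream of Hsp90b1, a chaperone of the endoplasmic reticulum (chr10:86169909-86170216), lay in an exon of BC030307. It had 155 and 253 on day 3 and 99.6 in day 1 replicate 1, with IRF4 in 2 libraries of each day. An intron of Pdia4, a disulfide isomerase, had 96.5 and 104 on day 3 and 76.2 in day 1 replicate 1, with an EICE. The place 13.8 kb upstream of Eif2ak3, which encodes the stress sensor PERK, had 75.1 and 109 on day 3 and 24.8 in day 1 replicate 2. All 3 are called in 1 day 1 library.

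Germinal centre genes counted 12 of 20, with 7 near a member called in neither day 1 library and 14 near a stable region. An intron of Bach2, a repressor of plasma cell differentiation (chr4:32651928-32652298), had 462 and 474 on day 3 and 572 in day 1 replicate 2, with a PU.1 site. Mef2c had 4 members nearby, the highest with 86.7 and 86.9 on day 3 and 72.9 in day 1 replicate 1. Cxcr5, the receptor that takes B cells to follicles, had an intronic member with 96.9 and 62.3 on day 3 and 46.1 in day 1 replicate 2. Each has a position in 1 day 1 library, but that of Cxcr5 lay inside peak intervals of both, with a day 1 list peak 1265 bp away.

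B cell receptor and identity genes counted 12 of 20, 3 of them near a member called in neither day 1 library, and 18 of the 20 had a stable region. The highest was in an intron of Lyn, a receptor-proximal kinase gene, with 99.3 and 169 on day 3 and 61.4 in day 1 replicate 1. Pik3ap1, an adaptor for PI3 kinase, had 6 members nearby, the highest with 112 and 54.1 on day 3 and 67.5 in day 1 replicate 2. The place 1.2 kb upstream of Fcrla had 63.2 and 81.6 on day 3 and 64.4 in day 1 replicate 2. Antigen presentation and costimulation genes counted 5 of 17, among them Cd86 with 4 members, while 15 of the 17 had a stable region.

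Activation genes of the NF-kB pathway counted 14 of 20, and 16 had a stable region. Nfkb1, which encodes the p105 and p50 subunit, had 6 members nearby, 4 of them called in neither day 1 library. Its highest, in an intron (chr3:135290894-135291298), had 127 and 126 on day 3 and 60.3 in day 1 replicate 1. A day 1 list peak stood 821 bp from it. An intron of Batf, whose protein partners IRF4 at AICE, had 87.5 and 69.2 on day 3 and 85.4 in day 1 replicate 2, inside peak intervals of both day 1 libraries. Interferon-stimulated genes counted 7 of 23, and 14 had a stable region. The highest member of that list lay in an intron of Pmepa1, 10.8 kb upstream of Zbp1. It had 62.1 and 33.8 on day 3 and 33.2 in day 1 replicate 1. It lay inside peak intervals of both day 1 libraries, with a day 1 list peak 324 bp away.

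Receptors that place and instruct B cells followed. Homing genes counted 13 of 20, with 7 near a member called in neither day 1 library, and 15 had a stable region. The place 8.1 kb upstream of Ccr7, the receptor for T zone chemokines, had 123 and 94.6 on day 3 and 103 in day 1 replicate 2. That 10.8 kb upstream of Ccr6 had 142 and 93.7 on day 3 and 104 in day 1 replicate 2. A day 1 list peak stood 517 bp from the Ccr7 place and 539 bp from the Ccr6 place. Cytokine receptors counted 9 of 20, and 17 had a stable region. An intron of Tnfrsf1b, a TNF receptor, had 126 and 91.8 on day 3 and 101 in day 1 replicate 2, an intron of Il21r 77.5 and 90.7 on day 3 and 63.5 in day 1 replicate 1, and the place 1.6 kb upstream of the BAFF receptor gene Tnfrsf13c 103 and 57.1 on day 3 and 71.7 in day 1 replicate 2. Cell cycle genes counted 6 of 20, among them Ccnd2 and Cdk6 with a member in an intron, and 13 had a stable region.

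Genes that mark other cell types were counted in the same way. Myeloid genes counted 7 of 20, with Cybb, the oxidase subunit of phagocytes, near 5 members and Itgam near 2; 9 of the 20 had a stable region. T and NK cell genes counted 3 of 20, and 11 had a stable region. Erythroid and megakaryocyte genes counted 4 of 15, and 2 had a stable region. Neuron and liver genes counted 2 of 20, and 8 had a stable region. No list's count is called particular to the members.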

How the data were processed

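PU.1 and IRF4 ChIP-seq peak lists of stimulated mouse B cells were analysed, as 1 list per library (2 PU.1 and 3 IRF4 libraries per day) and 1 list per factor and day. The series' design text names mm9 as the genome of the authors' mapping and QuEST as their peak caller, run against input; the submitters' processing notes also name mm9. The aligner, and QuEST's version and thresholds, are not stated in the sources read here. The deposited value of each peak, per the file headers a maximum enrichment, is the authors' fold enrichment over input, a linear ratio; here it describes, ranks or filters peaks of 1 list only. Read counts are not in the lists, so depth is unknown and no interval is given for a single peak. Peaks were called per library; each line of a list per factor and day matched a library line exactly, for PU.1 always one of replicate 1 (5 repeated lines on day 3 and 7 on day 1 were counted once). No source read here says how the skipped peak numbers arose.

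Peaks were partners when positions were less than 200 bp apart. Start sites, genes and exons came from GENCODE M1, on mm9; sequence came from the NCBIM37 reference in windows of 200 bp. Whether deposited positions count from 0 or 1 is not given; motif coordinates count from 1. Replicates carry the numbers of the sample descriptions. Days were compared with exact permutation tests over libraries, with 0.5 added to counts inside log2 ratios. Shares of regions carry 95% Wilson intervals and their differences 95% Newcombe intervals, which cover counting error only. The members and the 14 gene lists (275 genes, all matched, 3 of them through older symbols) were chosen with earlier results of these data known. Regions were named by rank: the 12 strongest members called in neither day 1 library (1 of them is not reported here), the 5 strongest called in exactly 1, the 8 strongest of the first kind with an IRF4 day 3 list peak, and up to 3 genes per list by their highest-ranking member. The 5 genes with most members, and the 5 with most per 100 kb, were also named. The code was tested on simulated data with Python 3.11.15, numpy 2.4.6, pandas 2.3.3 and samtools 1.23.1. The input library entered no comparison.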

Additional observations from a re-analysis of the deposited data

How the results depend on the processing

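The number of day 3-only distal regions, 5367, stayed within 1.5 times with partner distances of 100 and 500 bp, other distances to start sites and start sites of every annotated gene (4905 to 5728). It was 1645 when a call in either day 1 library counted, 1570 when a day 1 interval counted too, and 850 in the stronger 50% of the day 3 list. Leaving out 1 PU.1 library gave 2961 to 13709: 12075 without day 3 replicate 1, 13709 without day 3 replicate 2, 2961 without day 1 replicate 1 and 4056 without day 1 replicate 2, where the list of that day is all peaks of the remaining library. Genes of the lists near members fell to 46 of 112 with members called in neither day 1 library.

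The day difference of IRF4 at members, 0.354 points, was -0.466 with the stronger 50% of each IRF4 library and -0.944 to 1.31 without single libraries; it was below 0 without IRF4 day 3 replicate 3, IRF4 day 1 replicate 1 (-0.817) and PU.1 day 3 replicate 2 (-0.141). Relative to stable regions, 0.31 became -0.0328 with the stronger 50%, and -0.17 to 0.58 without single libraries, below 0 without IRF4 day 3 replicate 3 (-0.019) and IRF4 day 1 replicate 1. Relative to day 1-only regions it was 0.16 to 1.15 without single libraries. None of these passed 0.05, which 3 against 3 cannot reach.

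Whether the replicate numbers pair the IRF4 libraries is not known. Same-numbered libraries had correlations of -0.087, -0.1 and 0.015 in their deviations from the mean of their day. Differently numbered libraries had -0.068 to 0.179. Such deviations also reflect list length, so they cannot decide the pairing. The replicate block gave the same differences, 0.354, 0.31 and 0.54, with exact sign-flip p = 1.0, 0.75 and 0.5 (smallest 0.25).

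Within the 4 strength groups the EICE difference from stable regions was -0.46, 1.12, 0.71 and -3.02 points, and that of the PU.1 site in the strongest group -5.17, with intervals that include 0. The EICE difference from day 1-only regions was 1.68 with both classes free of calls on the other day, and -5.85 to 2.91 without single PU.1 libraries (2.87 without day 1 replicate 1 and 2.91 without day 3 replicate 1); the other leave-one-out differences of PU.1 site and EICE kept their sign, with -2.50 for the PU.1 site against day 1-only regions without day 3 replicate 1 and -2.70 for the EICE against stable regions without day 1 replicate 1. For the other 5 elements, 100 alternatives were run and 15 changed sign. Against stable regions these were ISRE in groups 1, 2 and 4 (0.139, 1.94 and 2.20) and without single libraries (range -0.854 to 0.795, with 0.795 without day 1 replicate 1 and 0.0207 without day 3 replicate 1), AP-1 in groups 3 and 4 (1.54 and 0.128), octamer in group 2 (-0.0364) and without single libraries (range -0.159 to 1.28, with -0.159 without day 1 replicate 2 and -0.111 without day 3 replicate 2), and Runx in groups 2 and 4 (1.95 and 1.05). Against day 1-only regions they were AP-1 in windows of 100 bp (0.0811) and without day 3 replicate 2 (0.205, range from -3.28), and ISRE without day 1 replicate 2 (-0.0298, range to 2.31). The cause was not tested. Strength groups were not run against day 1-only regions, whose enrichment comes from the day 1 list. Unknown depth limits every call near the lowest listed enrichment.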

Other observations

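Few genes gathered many members. Of 4572 genes with a member within 20 kb, 1146 had 2 or more, 347 had 3 or more and 45 had 5 or more. The most lay at Gm20388, an annotated span of 4434.9 kb with 31 members and 42 stable regions, so its count goes with its length. Akap13, a scaffold protein that anchors protein kinase A, had 8 members and 7 stable regions. Foxp1, a forkhead factor of B cell development, had 8 members and 13 stable regions, Elmo1, a regulator of Rac, 8 and 11, and Fgfr2, a growth factor receptor, 8 and 21. The annotation of Fgfr2 spans 3009.1 kb, with 0.262 members per 100 kb of the gene and its flanks.

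Among short genes, Zcchc10 had 4 members and 1 stable region (8.23 members per 100 kb of the gene and its flanks). Lta, the lymphotoxin alpha gene, had 3 members and 0 stable regions within 20 kb, of which 1 was called in neither day 1 library.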
